A study of Mus musculus with 15 samples.

Results

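The interferon-stimulated genes described here are a list of 45 mouse genes that interferons are known to switch on, followed over 5 groups of cultured mammary epithelial cells. Members were found by gene symbol: a probe set of the array had to be annotated with exactly 1 symbol of the list, and where a gene had several such probe sets the one with the highest mean over the 15 arrays was used. This gave 41 measured members of 19938 genes measured the same way. Isg15, Gbp2 and Igtp sat on probe sets shared with a second gene and Ifi44 was not listed in the annotation used, so these 4 are not analysed here. The rule uses no measured difference between groups, but the list itself was chosen with earlier results of these data known. Of the 41 members, 18 lay at or above the median level of all genes and 23 below it.

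Cells came from mammary glands of female mice aged 8 weeks and were kept in a serum-containing medium with growth factors and hydrocortisone, to which the labels list no interferon. All cultures were proliferating when RNA was taken, and 1 Affymetrix Mouse Gene array was made per sample, 3 per group. The first group, WT, is labelled wild type for p53, Rb and Myc. In the p53- group the p53 gene, and in the p53- Rb- group p53 and Rb, had been deleted with Cre recombinase delivered by an adenovirus. The p53- Myc+ group carried the p53 deletion and overexpressed MYC from a retrovirus, and the p53- Rb- Myc+ group had both deletions and the retroviral MYC. All 4 altered groups thus lack p53, and no group has an Rb deletion or MYC overexpression alone. The labels do not say whether WT cells received a control virus, or whether the 3 samples of a group were separate cultures or separate animals. The p-values therefore reflect only how far these samples scattered, which may be technical.

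Type I interferons, which include the interferon-alpha family and interferon-beta, bind a receptor built from Ifnar1 and Ifnar2, and the kinases Jak1 and Tyk2 then activate Stat2. Stat2 and Irf9 are subunits of the factor ISGF3, which binds the interferon-stimulated response element (ISRE) in promoters, whereas the response to interferon-gamma acts through the gamma-activated site (GAS). The induced proteins detect foreign RNA and DNA, block viral entry, translation or budding, and feed back on the pathway. Cells without added interferon often hold low levels of these RNAs, and epithelial cells and fibroblasts both respond to the cytokine.

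Median intensities of the 15 arrays ran from 41.3 to 54.9, and arrays of 1 group correlated at r = 0.963 to 0.989 over genes. Rb1 averaged 92.8 in WT and 161 in p53- arrays, against 57.4 with the p53- Rb- label, 36.4 with p53- Myc+ and 18.7 with p53- Rb- Myc+, so it was low also in the arrays labelled p53- Myc+, for which no Rb deletion is given. The probe set of mouse Myc read 888, 930 and 856 in the groups without the Myc+ label but 128 in arrays labelled p53- Myc+ and 96.3 in those labelled p53- Rb- Myc+, which goes against the label unless the probe set does not read the retroviral MYC. The summed intensity of 20 epithelial markers was 25569 to 30108 in the 9 arrays without the Myc+ label, 292 to 398 in p53- Myc+ arrays and 816 to 895 in p53- Rb- Myc+ arrays; 14 and 11 of the 20, respectively, had a group mean under 16 there, so the arrays labelled Myc+ largely lacked markers of the labelled cell type. Of 20 fibroblast markers 19 were measured, with sums of 10516 to 11544 in WT arrays, 11720 to 12336 in p53- arrays, 16756 to 20963 in p53- Rb- arrays, 11596 to 12603 in p53- Myc+ arrays and 8763 to 9993 in p53- Rb- Myc+ arrays. The sums of the 18 leukocyte markers measured were 2510 to 2960 in WT arrays, 913 to 1138 over p53- and p53- Rb- arrays, 512 to 546 in p53- Myc+ arrays and 646 to 684 in p53- Rb- Myc+ arrays. Those of 10 endothelial markers were 579 to 1020 in the 9 arrays without the Myc+ label and 199.5 to 320.0 in the 6 with it.

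Stretches of 8 promoters are printed, from members chosen because they moved in different directions below. Each stretch holds a match to the core letters of the ISRE. Sequences are from RefSeq, assembly GRCm38.p6, where 36 of the 45 listed genes matched by symbol. The ISRE core was searched on both strands as GAAA, any 2 bases and GAAA again, which reads TTTC, 2 bases and TTTC on the other strand, and the GAS as TTCNNNGAA, which is its own reverse complement. Each stretch has 60 bases in the direction of its gene, ends before the annotated start, and has every ISRE core in capitals. Ifit1, Ifit3, Oas3, Gbp3 and Rsad2 are genes of antiviral proteins. They read higher in p53- than in WT arrays and lower in p53- Rb- than in p53- arrays. They lie at chr19:34640770-34640829 (plus strand, Ifit1), chr19:34583365-34583424 (plus, Ifit3), chr5:120777700-120777759 (minus, Oas3), chr3:142559977-142560036 (plus, Gbp3) and chr12:26456538-26456597 (minus, Rsad2).
Ifit1: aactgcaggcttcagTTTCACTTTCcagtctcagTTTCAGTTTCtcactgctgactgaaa
Ifit3: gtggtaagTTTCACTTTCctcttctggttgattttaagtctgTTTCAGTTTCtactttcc
Oas3: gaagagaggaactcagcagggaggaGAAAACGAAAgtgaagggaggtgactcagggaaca
Gbp3: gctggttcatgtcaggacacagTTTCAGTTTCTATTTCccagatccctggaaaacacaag
Rsad2: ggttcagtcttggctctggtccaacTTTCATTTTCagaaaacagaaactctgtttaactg

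The other 3 are from Stat2, Bst2 and Ifitm2, which were higher in p53- Rb- than in p53- arrays, at chr10:128270251-128270310 (plus strand), chr8:71537565-71537624 (minus) and chr7:140955973-140956032 (minus). The changes of Ifit3, Oas3, Gbp3, Bst2 and Ifitm2 in p53- Rb- against p53- arrays did not hold in every fit run, as given below. Capitals again mark the ISRE core.
Stat2: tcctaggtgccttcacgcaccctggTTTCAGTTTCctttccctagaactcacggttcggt
Bst2: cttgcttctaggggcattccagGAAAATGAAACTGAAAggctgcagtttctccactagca
Ifitm2: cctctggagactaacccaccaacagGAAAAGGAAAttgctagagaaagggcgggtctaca

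Over windows of 300 bases, 250 before and 50 after each start, the ISRE core was found in 19 of 45 windows of listed genes (42.2%) and in 1131 of 32851 windows of all genes (3.44%). The GAS was found in 9 of the 45 (20%) and in 2726 of all windows (8.3%). In 2 of the 45 an ISRE core and a GAS overlap, as in Bst2, and in 5 windows ISRE cores overlap each other, as in Gbp3 and Bst2. Of the 32 measured members with a promoter, 15 held an ISRE core. Among those 15, 8 rose and 2 fell in p53- against WT arrays, 3 rose and 7 fell in p53- Rb- against p53-, and 1 rose and 11 fell in p53- Myc+ against p53-. Among the 17 without it, the counts in the same order were 5 and 0, 1 and 3, and 1 and 14. Over all 19938 genes 19.3% rose and 9.72% fell in the first of these comparisons, 9.36% and 10.4% in the next, and 13.1% and 20.2% in the last. These are matches of letters in a window, not sites shown to be bound, and a window without them says nothing of the factor.

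**Figure D1:**
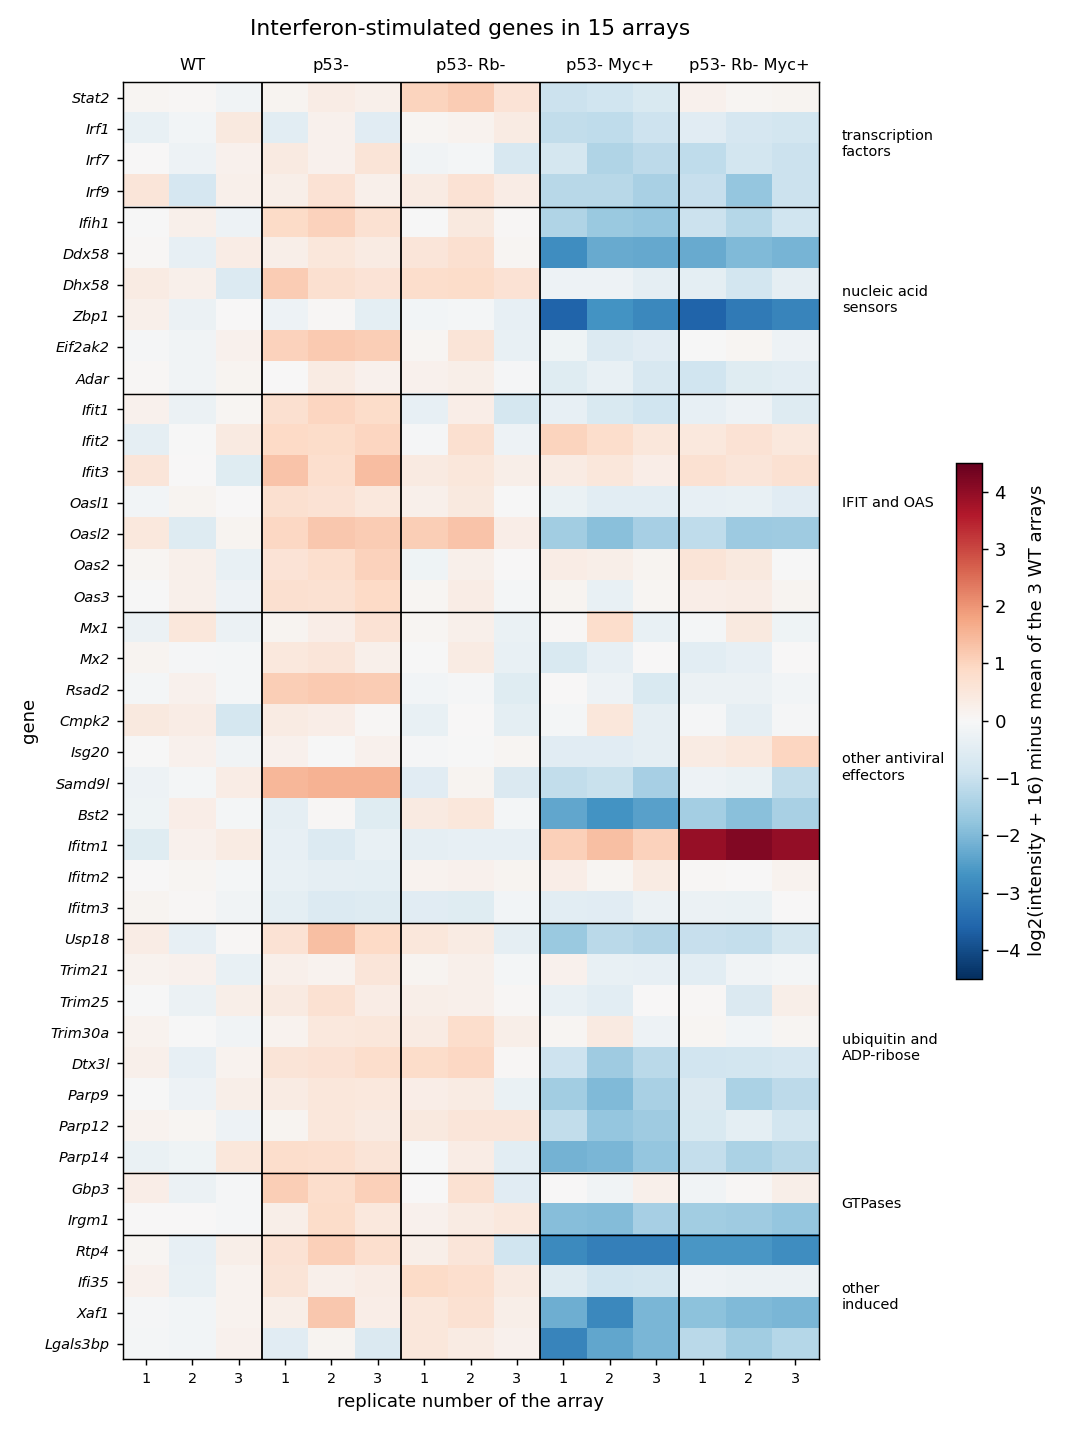
Heat map of the 41 measured interferon-stimulated genes (rows, ordered by role) in the 15 arrays (columns, by group and replicate number), coloured by log2(intensity + 16) minus the mean of the 3 WT arrays. Most rows are warm in p53- arrays and blue in the 6 arrays labelled Myc+, and Ifitm1 is red in those 6, reaching 779 to 937 in p53- Rb- Myc+ arrays.

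The members had their highest group mean in p53- arrays in 27 of 41 cases and their lowest in p53- Myc+ arrays in 27 of 41. Over all 19938 genes these groups held the highest mean of 4877 and the lowest mean of 4677 genes. Measured as the median over members of the difference from the WT mean on the log2 scale, the p53- arrays read 0.40, 0.64 and 0.49, with 0.09 to 0.15 for all genes. The p53- Rb- arrays read 0.14, 0.36 and -0.07, so this group overlapped WT, whose arrays read -0.04 to 0.04. Arrays labelled p53- Myc+ read -0.74 to -0.60 and p53- Rb- Myc+ arrays -0.48 to -0.40, against -0.00 to 0.09 and 0.07 to 0.18 for all genes. The 3 arrays of each Myc+ group lay below every array of the other 3 groups. In whole cultures, fewer cells of a type and less RNA per cell cannot be told apart.

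**Figure D2:**
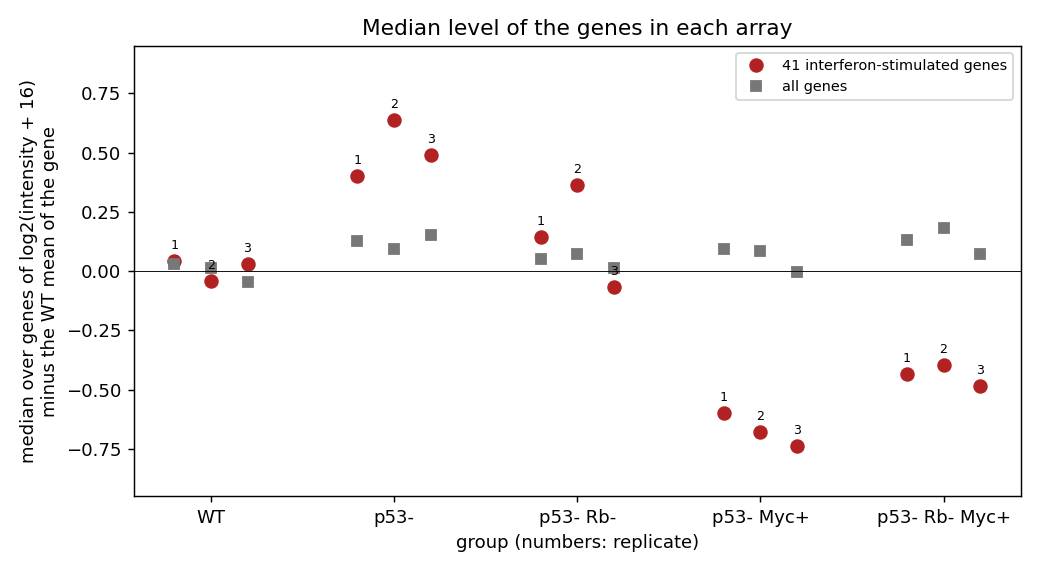
Median over genes of log2(intensity + 16) minus the gene's WT mean, for each array (x axis: group; numbers: replicate), shown for the 41 interferon-stimulated genes (red circles) and for all genes (grey squares). The p53- arrays sit at 0.40 to 0.64, the arrays labelled Myc+ between -0.74 and -0.40, and the p53- Rb- arrays spread from -0.07 to 0.36.

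The 3 p53- Rb- arrays differed among themselves in these genes. Replicate 2 was the highest array of its group in 33 of 41 members and replicate 3 the lowest in 33 of 41, where over all genes these arrays held 39.4% and 44.4%. Replicate 2 exceeded replicate 3 in 37 of the 41 members (90.2%) and in 56.6% of all genes, by a median log2 difference of 0.45 and 0.05. Rtp4 differed by 1.44, Gbp3 by 1.20 and Ifit1 by 1.10. Of 42 other interferon-induced genes, described below, 26 were higher in replicate 2, a share near the 56.6% of all genes. Their median difference was 0.15, against 0.05 for all genes. In the same arrays the fibroblast marker sum was 16756, 17847 and 20963 in replicates 1 to 3 and the epithelial sum 28951, 28977 and 26053; their part in the spread was not tested. Counts without replicate 3 are given beside those of the comparisons with the p53- Rb- group.

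Changes were tested on log2(intensity + 16) in 1 limma fit of all 15 arrays. The p-values of each comparison were adjusted by the Benjamini-Hochberg method over the 19938 genes, and rose or fell is written where the adjusted p was under 0.05, called passing here. Every comparison that includes p53- arrays shares them, so a chance value in those arrays enters each. The constant 16 shrinks the fold change of dim genes. Fold changes are on the log2 scale with their SE.

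Deletion of p53 was addressed by p53- against WT arrays. The labels do not say whether WT cells received a control virus, so deletion and adenovirus cannot be told apart here. In p53- arrays 18 of 41 members rose and 2 fell, a share of 48.8% against 29% of all genes, with 19.3% of all genes rising and 9.72% falling. The median fold change was 0.45 over members and 0.12 over all genes. Of 18 leukocyte markers 7 fell and 2 rose in this comparison, and of 20 epithelial markers 7 fell and none rose. Of 19 fibroblast markers 7 fell and 4 rose, and of 10 endothelial markers 3 fell and 2 rose. The part of these markers in the result was not tested. In 24 members all 3 p53- arrays lay above all 3 WT arrays, as did 26.4% of all genes, and in 2 they lay below, against 13.8%. With each array centred on its median the members that rose and fell numbered 17 and 3, the median of all genes moved to 0.02, and the share of all passing genes that rose went from 66.5% to 52.5% (51.6% after quantile normalization). Without p53- replicate 3 the genes passing numbered 3470 in place of 5780, and 16 members passed. With 1 in place of 16 added, Ifih1, Ifit1, Usp18, Parp14, Dtx3l, Irgm1 and Rtp4 did not pass (0.0604 to 0.202), nor did Irgm1 after median centring (0.0795).

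Deletion of Rb on top of p53 was addressed by p53- Rb- against p53- arrays. Here 14 members fell and 4 rose, 43.9% against 19.8% of all genes, with 10.4% of all genes falling and 9.36% rising. Of all passing genes 47.3% rose, but 55.8% after median centring and 50.5% after quantile normalization. Of 19 fibroblast markers 13 rose in the same comparison and none fell by limma's adjusted p (median fold change 0.86); their part in the result was not tested. The median was -0.23 over members and -0.08 over all genes. The arrays did not overlap in 18 members that were lower and 3 that were higher, against 23.1% and 16.9% of all genes. Without p53- Rb- replicate 3, 5 members fell and 4 rose, and without p53- replicate 3, 9 fell and 2 rose; genes passing numbered 2098 and 2130 in place of 3950. With 1 in place of 16 added, Irf7, Ifih1, Ifit2, Ifit3, Usp18, Parp14, Rtp4, Bst2 and Lgals3bp did not pass (0.0517 to 0.24), nor did Bst2 after quantile normalization (0.074) or with only both groups in the fit (0.0507). In a fit of genes at or above the median level only, 4 of the 18 members left rose and 1 fell, with a median of 0.07. Against WT, p53- Rb- arrays had 4 members that rose and none that fell by limma's adjusted p (14.6% of all genes passed, 10.8% rising and 3.75% falling); at an unadjusted p under 0.05, 9 were higher and 1 lower. The count by adjusted p was 1 without p53- Rb- replicate 1 or without replicate 2, and 2 without WT replicate 2. It was 6 without p53- Rb- replicate 3 or WT replicate 1, when 5 rose and 1 fell. Arrays of p53- Rb- lay above all WT arrays in 8 members and below them in none, against 19.7% and 11.6% of all genes.

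MYC was addressed by arrays labelled p53- Myc+ against p53-. No group is described as given a retrovirus without MYC. MYC and the retrovirus therefore cannot be told apart, here or with Rb also deleted. In them 33 members fell and 2 rose, 85.4% against 33.3% of all genes, with 20.2% of all genes falling and 13.1% rising. The median was -1.15 over members and -0.09 over all genes, and 24 members fell by at least 1 on the log2 scale. Arrays did not overlap in 33 lower and 2 higher members, against 25.8% and 16.8% of all genes. Median centring gave 30 that fell and 2 that rose, moved the median of all genes to 0.11, and changed the share of all passing genes that rose from 39.2% to 59.2% (56.2% after quantile normalization). With Rb also deleted, p53- Rb- Myc+ against p53- Rb- arrays gave 22 that fell and 2 that rose, 58.5% against 36.3% of all genes (18.7% falling, 17.6% rising). There the arrays did not overlap in 23 lower and 3 higher members, against 22.7% and 28.6% of all genes. Without p53- Rb- replicate 3, 23 members fell and 2 rose. Of all passing genes 48.5% rose, but 57.1% after median centring and 55.9% after quantile normalization. In both comparisons 19 of the 20 epithelial markers fell as well, Krt15 being the one that did not pass. Of 10 endothelial markers 7 and 6 fell. Of 19 fibroblast markers 12 rose and 4 fell in p53- Myc+ against p53-. In p53- Rb- Myc+ against p53- Rb-, 3 of the 19 rose and 12 fell. The part of these markers in the result was not tested.

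Deletion of Rb in cells labelled Myc+ was addressed by p53- Rb- Myc+ against p53- Myc+ arrays. Here 6 members rose and none fell by limma's adjusted p, 14.6% against 4.69% of all genes (3.29% rising, 1.4% falling); at an unadjusted p under 0.05 the counts were 11 and 0. The median was 0.24 over members and 0.05 over all genes, and the arrays did not overlap in 17 higher and 1 lower member, against 12.8% and 7.71% of all genes. Of the passing genes overall 70.2% rose, 55.8% after median centring and 59.4% after quantile normalization; the 6 members rose under both. The epithelial marker sum was also higher here, at 816 to 895 against 292 to 398, mostly through Krt19 (489 against 75.6 on average). By limma's adjusted p 3 of the 20 epithelial markers rose. Of 19 fibroblast markers 7 fell and none rose by the same measure (median fold change -0.40). The part of these markers in the result was not tested.

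**Figure D3:**
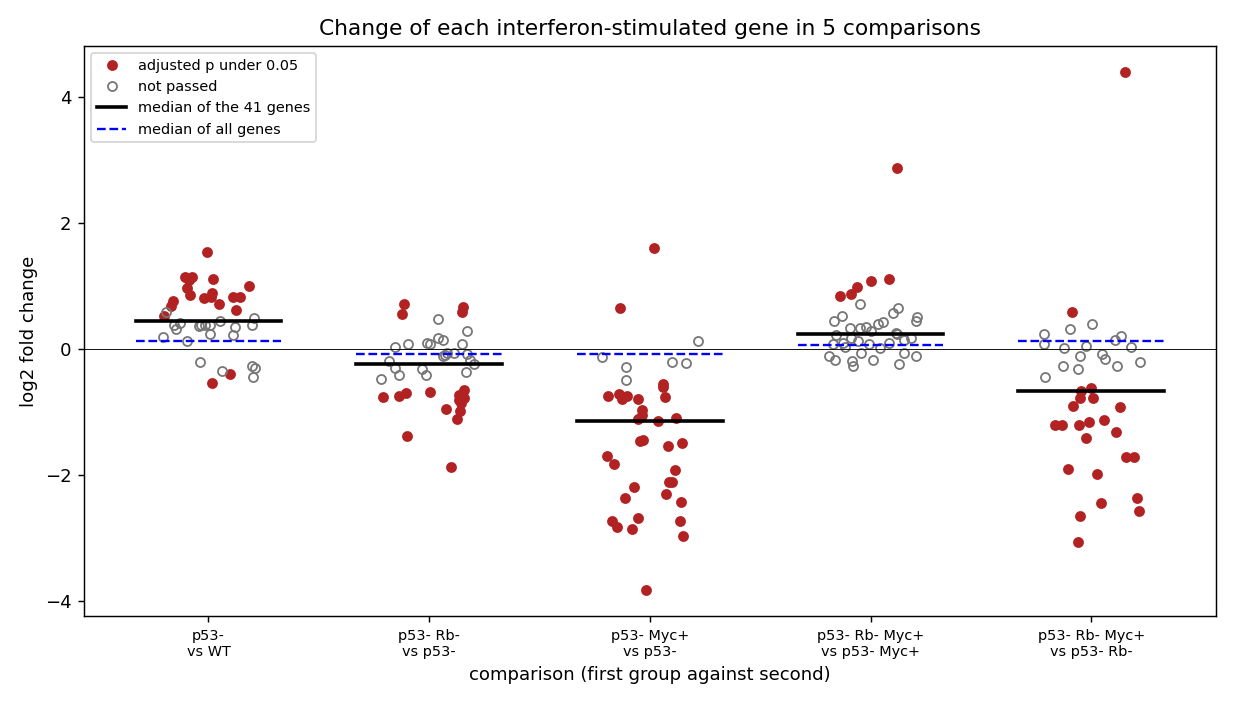
Log2 fold change of each of the 41 interferon-stimulated genes (y axis) in 5 comparisons (x axis); filled points passed at an adjusted p under 0.05 and open points did not. Solid bars are the median of the 41 genes and dashed bars the median of all genes, at -1.15 and -0.09 in p53- Myc+ against p53-, and the highest point is Ifitm1 at 4.39.

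Of the 4 transcription factors, none passed in p53- against WT arrays by limma's adjusted p or at an unadjusted p under 0.05, and all 4 fell in arrays labelled p53- Myc+ against p53-. By adjusted p 29% of all genes passed in the first comparison and 20.2% fell in the second. Stat2, a subunit of ISGF3, read 121, 119 and 101 in WT, 127, 146 and 137 in p53- arrays, 242, 267 and 180.4 in p53- Rb- arrays, 49.7, 52.9 and 65.1 in p53- Myc+ arrays and 131, 121 and 124 in the p53- Rb- Myc+ arrays. Every p53- Rb- array lay above every other array, and every p53- Myc+ array below. Stat2 rose by 0.67 ± 0.16 in p53- Rb- against p53- (adjusted p = 0.00565) and by 0.98 ± 0.16 in p53- Rb- Myc+ against p53- Myc+ (0.000346). Irf9, the DNA-binding subunit of the same factor, read 110.1, 35.3 and 87 in WT, 88.9, 119.8 and 85.9 in p53- arrays, 96.7, 121 and 94.7 in p53- Rb- arrays, 20.8, 20.5 and 15.5 in p53- Myc+ arrays and 26.4, 9.89 and 28.6 in the p53- Rb- Myc+ arrays. The groups without the Myc+ label overlapped and lay above all arrays with it, Irf9 falling by 1.70 ± 0.25 in p53- Myc+ against p53- (1.14e-05) and by 1.71 ± 0.25 in p53- Rb- Myc+ against p53- Rb- (1.07e-05).

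Irf7, which amplifies interferon-alpha production, read 61, 48.3 and 69.7 in WT, 83.2, 69.6 and 95.1 in p53- arrays, 51.5, 54.6 and 29.4 in p53- Rb- arrays, 27.3, 13.1 and 17.4 in p53- Myc+ arrays and 17.8, 26.5 and 22.1 in the p53- Rb- Myc+ arrays. The lowest p53- array read just under the highest WT array, and all lay above all p53- Rb- arrays, where Irf7 fell by 0.71 ± 0.19 (0.0132). That call ended without p53- replicate 3 (0.0788) or p53- Rb- replicate 3 (0.111). Irf7 fell by 1.49 ± 0.19 in p53- Myc+ against p53- (1.72e-06) and by 0.66 ± 0.19 in p53- Rb- Myc+ against p53- Rb- (0.01), a call that ended without p53- Rb- replicate 1 (0.0545), p53- Rb- replicate 2 (0.0594) or p53- Rb- Myc+ replicate 1 (0.0528). Irf1, an activator induced by interferon-gamma, read 185, 220.4 and 331 in WT, 165, 273 and 164 in p53- arrays, 258, 267 and 311 in p53- Rb- arrays, 103, 100.1 and 117 in p53- Myc+ arrays and 161, 133 and 129 in the p53- Rb- Myc+ arrays. WT, p53- and p53- Rb- arrays overlapped for Irf1, which fell by 0.79 ± 0.20 in p53- Myc+ against p53- (0.00399) and by 0.91 ± 0.20 in p53- Rb- Myc+ against p53- Rb- (0.00112).

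Among 6 sensors of foreign nucleic acid, 3 rose in p53- against WT arrays and all 6 fell in p53- Myc+ against p53-. The shares of all genes were 19.3% and 20.2%. Eif2ak2, the kinase PKR that halts translation on double-stranded RNA, read 102, 92.6 and 123 in WT, 235, 257 and 243 in p53- arrays, 114, 167 and 80.7 in p53- Rb- arrays, 90.8, 62.5 and 68.7 in p53- Myc+ arrays and 104, 114 and 88.3 in the p53- Rb- Myc+ arrays. The p53- arrays stood above all 12 others. Eif2ak2 rose by 1.11 ± 0.20 against WT (0.000291), fell by 0.98 ± 0.20 in p53- Rb- against p53- (0.00127) and fell by 1.55 ± 0.20 in p53- Myc+ against p53- (1.22e-06). Ifih1, the long double-stranded RNA sensor MDA5, read 35.7, 46.6 and 29.6 in WT, 79.1, 91.5 and 68 in p53- arrays, 36.7, 55.4 and 38.4 in p53- Rb- arrays, 4.67, 0.759 and 0.00408 in p53- Myc+ arrays and 11, 5.62 and 12.3 in the p53- Rb- Myc+ arrays. Its p53- arrays were again the 3 highest, and all arrays labelled Myc+ read under 16. Ifih1 rose by 0.85 ± 0.18 against WT (0.00139) and fell by 0.69 ± 0.18 in p53- Rb- against p53- (0.00934), which ended without p53- Rb- replicate 1 (0.0525) or replicate 3 (0.0504).

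Ddx58, the RNA sensor RIG-I, read 269, 193 and 325 in WT, 308, 373 and 335 in p53- arrays, 381, 429 and 275 in p53- Rb- arrays, 23.6, 40.7 and 38.7 in p53- Myc+ arrays and 40.9, 52.3 and 47.5 in the p53- Rb- Myc+ arrays. The groups without the Myc+ label overlapped, and Ddx58 fell by 2.83 ± 0.20 in p53- Myc+ against p53- (9.28e-11) and by 2.57 ± 0.20 in p53- Rb- Myc+ against p53- Rb- (5.13e-10). Zbp1, which senses Z-form nucleic acid and can start cell death, read 212, 149 and 185 in WT, 151, 187 and 128 in p53- arrays, 166, 168 and 136 in p53- Rb- arrays, 0.0036, 14.5 and 10.5 in p53- Myc+ arrays and 0.175, 5.45 and 9.26 in the p53- Rb- Myc+ arrays. All 6 arrays labelled Myc+ were thus near the bottom of the scale, with fold changes of -2.85 ± 0.22 against p53- (4.31e-10) and -3.06 ± 0.22 against p53- Rb- (1.32e-10). Dhx58, the RIG-I-like protein LGP2, rose by 0.83 ± 0.22 in p53- against WT (0.00666), with WT arrays at 6.09 to 28.2 and p53- arrays at 35.6 to 59.9. Adar, which edits double-stranded RNA, moved least of the 6 in p53- Myc+ against p53-, falling by 0.72 ± 0.17 (0.00195).

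The IFIT and OAS families moved together with the p53- label: all 7 members rose against WT, with p53- arrays above WT arrays in 7 of 7. Of all genes 19.3% rose and 26.4% had p53- arrays above WT arrays. All 7 members lay below the median level of all genes. Ifit proteins bind viral RNA and block its translation, and OAS enzymes make the messenger that activates RNase L. Ifit1 read 29.6, 17 and 26.4 in WT, 50, 61.5 and 54.3 in p53- arrays, 14.7, 33.7 and 7.14 in p53- Rb- arrays, 15.3, 9.01 and 5.69 in p53- Myc+ arrays and 14.8, 17.8 and 10.6 in the p53- Rb- Myc+ arrays. Its p53- arrays stood above the rest, and p53- Rb- replicate 2 was the next array. Ifit1 rose by 0.83 ± 0.22 against WT (0.00721), fell by 1.12 ± 0.22 in p53- Rb- against p53- (0.00108) and fell by 1.47 ± 0.22 in p53- Myc+ against p53- (1.18e-05). Ifit3, which stabilises Ifit1 complexes, read 45.8, 26.4 and 12.5 in WT, 86.1, 55.4 and 93.2 in p53- arrays, 40.3, 44.4 and 34.7 in p53- Rb- arrays, 38.6, 43.5 and 35.5 in p53- Myc+ arrays and 52.5, 46 and 51.1 in the p53- Rb- Myc+ arrays. The p53- arrays were the 3 highest, with a rise of 1.14 ± 0.22 against WT (0.000515). Its fall of 0.74 ± 0.22 in p53- Rb- (0.0192) ended without p53- replicate 1 (0.0813) or p53- replicate 3 (0.111), or without p53- Rb- replicate 3 (0.0886), and its fall of 0.75 ± 0.22 in p53- Myc+ (0.00884) without p53- replicate 3 (0.0555).

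Oasl2, an OAS-like protein with ubiquitin-like domains, read 106, 43.8 and 80 in WT, 155, 188 and 179 in p53- arrays, 174, 202 and 94.3 in p53- Rb- arrays, 14.2, 8.11 and 15.6 in p53- Myc+ arrays and 23.8, 12.3 and 13.4 in the p53- Rb- Myc+ arrays. Unlike Ifit1, its p53- Rb- arrays overlapped p53- arrays, with a fold change of -0.19 ± 0.25 (0.618). Oasl2 rose by 1.09 ± 0.25 in p53- against WT (0.00216) and fell by 2.74 ± 0.25 in p53- Myc+ against p53- (5.33e-09) and by 2.37 ± 0.25 in p53- Rb- Myc+ against p53- Rb- (5.69e-08). Oasl1, which restrains Irf7 translation, read 44.3, 55.8 and 50.8 in WT, 92.5, 88.6 and 76.9 in p53- arrays, 61.5, 74 and 48.8 in p53- Rb- arrays, 37.1, 31.4 and 31.1 in p53- Myc+ arrays and 35.2, 36.4 and 30.3 in the p53- Rb- Myc+ arrays. The p53- arrays were the highest and both Myc+ groups overlapped at the bottom. Oasl1 rose by 0.62 ± 0.16 against WT (0.00551) and fell by 1.05 ± 0.16 in p53- Myc+ against p53- (1.28e-05) and by 0.62 ± 0.16 in p53- Rb- Myc+ against p53- Rb- (0.00345).

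The remaining IFIT and OAS members, Ifit2, Oas2 and Oas3, rose in p53- against WT arrays by 0.89 ± 0.22 (0.00465), 0.80 ± 0.19 (0.00331) and 0.76 ± 0.17 (0.0022). They fell in p53- Rb- against p53- by 0.75 ± 0.22, 0.78 ± 0.19 and 0.66 ± 0.17 (0.0202, 0.00566 and 0.00954). The fall of Ifit2 ended without p53- replicate 1 (0.0564), p53- replicate 3 (0.0818), p53- Rb- replicate 1 (0.0871) or p53- Rb- replicate 3 (0.139), and that of Oas3 without p53- replicate 3 (0.0556) or p53- Rb- replicate 3 (0.0655). Ifit2 was the member of these families that did not pass in p53- Myc+ against p53- (-0.13 ± 0.22, 0.717), where p53- Myc+ arrays read 69.8, 56.9 and 44.1 and p53- arrays 62.3, 58.6 and 67.5. The fall of Oas2 there (0.56 ± 0.19, 0.0254) ended without p53- replicate 3 (0.134), p53- Myc+ replicate 2 (0.0505) or p53- Myc+ replicate 3 (0.0827), and after median centring (0.126), after quantile normalization (0.12) or with 1 added (0.0554). In p53- Rb- Myc+ against p53- Rb- arrays, Oasl1 and Oasl2 fell and the other 5 ranged from -0.12 (Ifit1) to 0.39 (Ifit2) without passing.

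The other antiviral effectors moved in both directions. Samd9l, a translation inhibitor that restricts poxviruses, read 31.1, 35.7 and 52.9 in WT, 139, 146 and 146 in p53- arrays, 23.1, 44.2 and 19.5 in p53- Rb- arrays, 9.52, 11.7 and 3.78 in p53- Myc+ arrays and 31.1, 28.6 and 9.9 in the p53- Rb- Myc+ arrays. The 3 p53- arrays agreed closely and lay far above every other array. Samd9l rose by 1.53 ± 0.23 against WT (4.64e-05), fell by 1.87 ± 0.23 in p53- Rb- against p53- (9e-06) and fell by 2.73 ± 0.23 in p53- Myc+ against p53- (1.54e-09). Rsad2, the enzyme viperin that makes a chain-terminating nucleotide, read 31.5, 42.1 and 32.1 in WT, 93.8, 98.9 and 97.3 in p53- arrays, 30.6, 33.4 and 19.1 in p53- Rb- arrays, 35.9, 27.2 and 16 in p53- Myc+ arrays and 27, 26.9 and 31 in the p53- Rb- Myc+ arrays. The p53- arrays lay far above the other 12, which ran from 16 to 42.1. Rsad2 rose by 1.14 ± 0.18 against WT (8.74e-05), fell by 1.38 ± 0.18 in p53- Rb- against p53- (1.87e-05) and fell by 1.44 ± 0.18 in p53- Myc+ against p53- (9.81e-07).

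Bst2, the tetherin that holds budding virions at the cell surface, followed another order of groups. It read 343, 480.0 and 365 in WT, 289.7, 411 and 265 in p53- arrays, 527, 567 and 369.9 in p53- Rb- arrays, 64.6, 47 and 58.8 in p53- Myc+ arrays and 124, 95.7 and 133 in the p53- Rb- Myc+ arrays. WT, p53- and p53- Rb- arrays overlapped, and p53- Rb- Myc+ arrays lay between these and p53- Myc+. Bst2 fell by 2.20 ± 0.20 in p53- Myc+ against p53- (6.5e-09) and by 1.90 ± 0.20 in p53- Rb- Myc+ against p53- Rb- (6.86e-08). It rose by 0.87 ± 0.20 in p53- Rb- Myc+ against p53- Myc+ (0.00895), which ended without p53- Myc+ replicate 2 (0.0545) or p53- Rb- Myc+ replicate 3 (0.0559). Its rise of 0.58 ± 0.20 in p53- Rb- against p53- (0.0447) ended without p53- replicate 1 (0.149), p53- replicate 3 (0.207), p53- Rb- replicate 1 (0.141) or p53- Rb- replicate 2 (0.158).

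Ifitm1, a membrane protein that blocks virus entry, had its highest levels in the arrays labelled Myc+. It read 20.4, 43.9 and 51.6 in WT, 24.5, 18.2 and 25.9 in p53- arrays, 23.7, 25.2 and 25 in p53- Rb- arrays, 94.8, 119 and 92.5 in p53- Myc+ arrays and 779, 937 and 810.0 in the p53- Rb- Myc+ arrays. Both Myc+ groups lay above all other arrays and apart from each other. Ifitm1 rose by 1.60 ± 0.19 in p53- Myc+ against p53- (5.19e-07), by 2.87 ± 0.19 in p53- Rb- Myc+ against p53- Myc+ (4.57e-10) and by 4.39 ± 0.19 in p53- Rb- Myc+ against p53- Rb- (2.55e-14). A second probe set of Ifitm1 had group means of 22.9, 9.68, 13.4, 52.3 and 498 in the same order of groups. Ifitm genes are near-identical copies in part, so probes of 1 may read another, and the sources used here do not settle this.

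Ifitm2 and Ifitm3, of the same family, were the 2 members that fell in p53- against WT arrays. Ifitm3 read 2100.0, 1990.3 and 1751 in WT and 1432, 1276 and 1287 in p53- arrays, a fall of 0.54 ± 0.16 (0.0153) that ended without WT replicate 1 (0.0583) or p53- replicate 3 (0.0605). Ifitm2 read 1435, 1526 and 1329.6 in WT, 1136, 1074 and 1048 in p53- arrays, 1578, 1648 and 1569.9 in p53- Rb- arrays, 1775, 1511 and 1837 in p53- Myc+ arrays and 1488, 1460.4 and 1585 in the p53- Rb- Myc+ arrays. The p53- arrays were its 3 lowest. Its fall of 0.39 ± 0.15 against WT (0.047) passed without WT replicate 3 but not without any other array, at 0.0732 to 0.142 without WT replicate 1 or 2 or any p53- array, nor with the replicate number as a block (0.057). Ifitm2 rose by 0.55 ± 0.15 in p53- Rb- against p53- (0.01) and by 0.64 ± 0.15 in p53- Myc+ against p53- (0.00129). All 3 of its probe sets were lower in p53- than in p53- Rb- arrays on average, but with their mean in place of the brightest the change was 0.39 and did not pass (0.0991). The fall against WT also did not pass after quantile normalization (0.0773).

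Isg20, a nuclease that degrades viral RNA, was named after its values were seen. It read 183, 216 and 164 in WT, 216, 184 and 213 in p53- arrays, 181, 185 and 199.9 in p53- Rb- arrays, 126, 125 and 137 in p53- Myc+ arrays and 246, 264 and 377 in the p53- Rb- Myc+ arrays. The p53- Rb- Myc+ arrays were the 3 highest and the p53- Myc+ arrays the 3 lowest. Isg20 rose by 1.08 ± 0.17 in p53- Rb- Myc+ against p53- Myc+ (0.00016) and by 0.59 ± 0.17 against p53- Rb- (0.00853), the latter not without p53- Rb- Myc+ replicate 3 (0.0695), and fell by 0.60 ± 0.17 in p53- Myc+ against p53- (0.00738, but 0.0804 after median centring). The dynamin-like Mx1 and Mx2 and the kinase Cmpk2 were dim, at 1.02 to 38.1 over all arrays, and of their 15 tests in the 5 comparisons only the fall of Mx2 in p53- Myc+ against p53- passed (0.76 ± 0.20, 0.0047), and not after quantile normalization (0.0898).

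**Figure D4:**
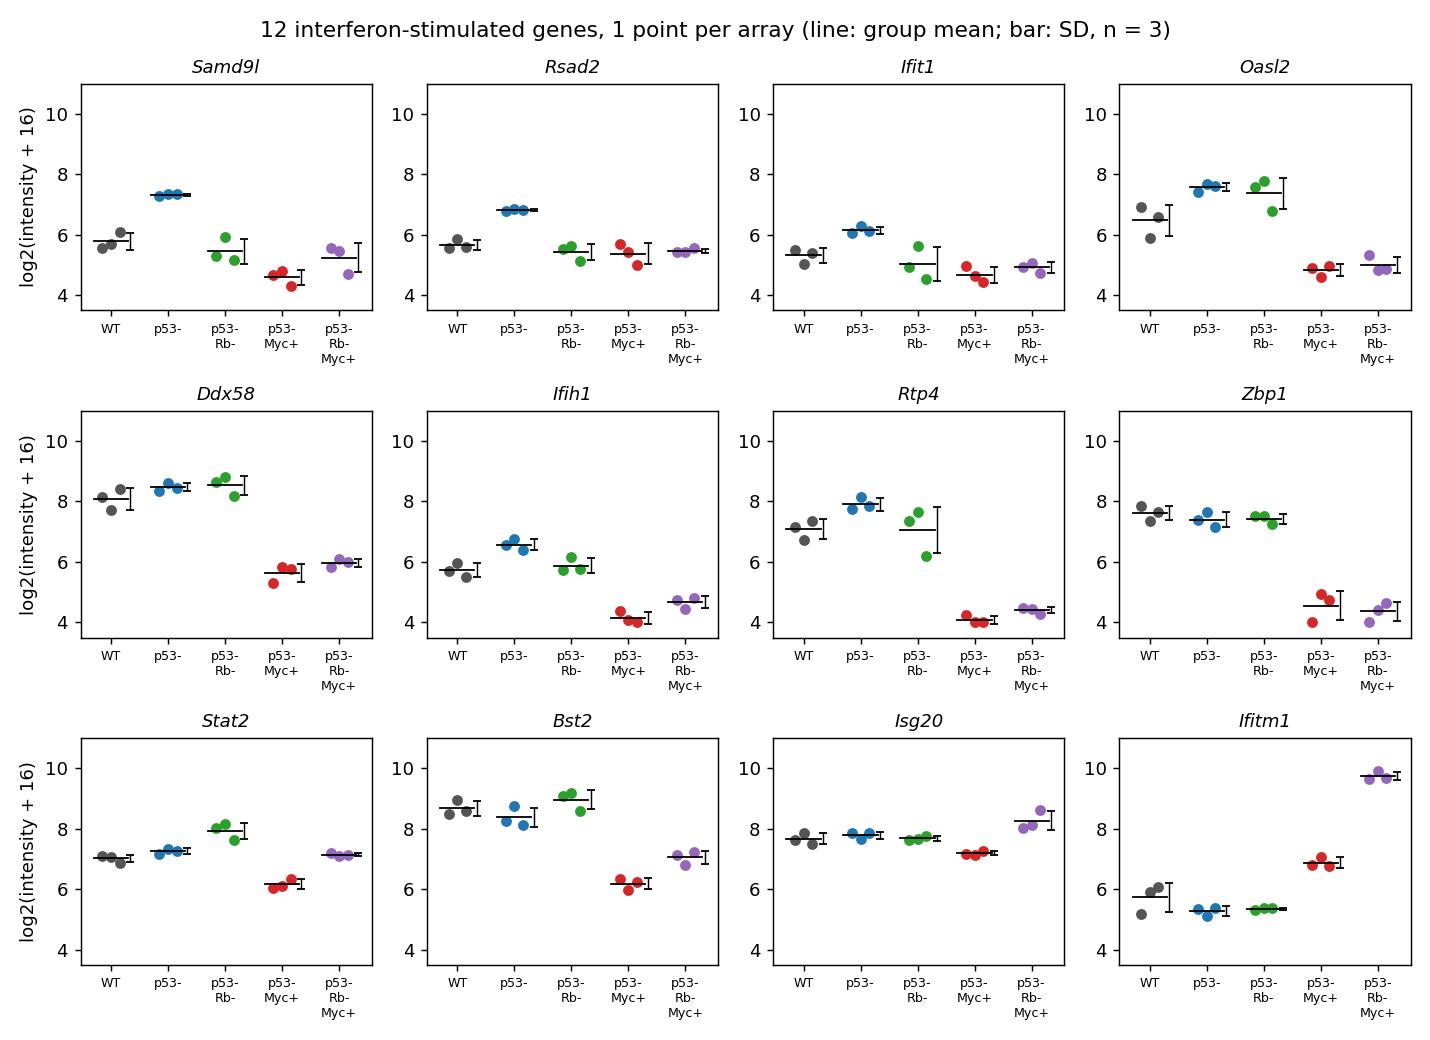
Log2(intensity + 16) of 12 interferon-stimulated genes in the 5 groups, 1 point per array, with the group mean (line) and SD (bar, n = 3). Samd9l, Rsad2 and Ifit1 peak in p53- arrays, Ddx58, Ifih1, Rtp4, Zbp1 and Bst2 are lowest in both Myc+ groups, and Ifitm1 is highest in p53- Rb- Myc+ arrays at 779 to 937.

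Of 8 members of the ISG15, ubiquitin and ADP-ribose system, 3 rose in p53- against WT and 6 fell in p53- Myc+ against p53-. These are 37.5% and 75%, against 19.3% and 20.2% of all genes. Usp18, the protease that removes Isg15 and damps the type I receptor, read 52.6, 26.7 and 40.4 in WT, 70.3, 124 and 86 in p53- arrays, 62, 55.6 and 25.5 in p53- Rb- arrays, 1.25, 7.57 and 5.87 in p53- Myc+ arrays and 10.5, 10.4 and 16.1 in the p53- Rb- Myc+ arrays. The p53- arrays were the 3 highest. Usp18 rose by 0.97 ± 0.23 against WT (0.00352) and fell by 2.37 ± 0.23 in p53- Myc+ against p53- (2.07e-08). Its fall of 0.80 ± 0.23 in p53- Rb- (0.0172) ended without p53- replicate 2 (0.0796) or p53- Rb- replicate 3 (0.151). Parp14, an ADP-ribosyltransferase, read 68.2, 75.1 and 132 in WT, 164, 159 and 141 in p53- arrays, 87.4, 116 and 59.7 in p53- Rb- arrays, 8.12, 9.17 and 15.2 in p53- Myc+ arrays and 33.2, 22.6 and 28.2 in the p53- Rb- Myc+ arrays. Again p53- was highest and p53- Myc+ lowest, with a fold change of -2.68 ± 0.21 between them (7.12e-10). Its rise of 0.71 ± 0.21 against WT (0.0156) ended without WT replicate 1 (0.0855), WT replicate 2 (0.0665) or p53- replicate 1 (0.0542), and its fall of 0.76 ± 0.21 in p53- Rb- (0.0151) without p53- replicate 1 (0.0585) or p53- Rb- replicate 3 (0.122).

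Parp9, the partner of the ubiquitin ligase Dtx3l, read 136, 115 and 171 in WT, 185, 205 and 197 in p53- arrays, 176, 184 and 109 in p53- Rb- arrays, 37, 23.3 and 40.2 in p53- Myc+ arrays and 82.6, 41.4 and 52.5 in the p53- Rb- Myc+ arrays. All p53- arrays lay above WT, without passing (0.45 ± 0.21, 0.122), and Parp9 fell by 2.11 ± 0.21 in p53- Myc+ against p53- (3.83e-08). Dtx3l itself rose by 0.67 ± 0.22 against WT (0.0222), not without WT replicate 2 (0.123) or p53- replicate 3 (0.089), and fell by 1.93 ± 0.22 in p53- Myc+ (1.84e-07). Parp12, an ADP-ribosyltransferase that restricts viral translation, read 148, 141 and 111 in WT, 147, 194 and 179.6 in p53- arrays, 183, 203 and 202 in p53- Rb- arrays, 52.4, 28.6 and 32.9 in p53- Myc+ arrays and 76.2, 93 and 68.6 in the p53- Rb- Myc+ arrays. The Myc+ groups were low and did not overlap each other, with a rise of 0.84 ± 0.18 in p53- Rb- Myc+ against p53- Myc+ (0.00515). Trim25, which ubiquitinates RIG-I, fell by 0.75 ± 0.21 in p53- Myc+ against p53- (0.00737, but 0.059 after median centring), and Trim21 and Trim30a did not pass in any of the 5 comparisons.

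Both GTPases rose in p53- against WT arrays and fell in p53- Myc+ against p53-, where 19.3% and 20.2% of all genes did so. Irgm1, a regulator of autophagy of vacuolar pathogens, read 123, 121 and 117 in WT, 149, 226 and 171 in p53- arrays, 139, 159 and 175 in p53- Rb- arrays, 20.4, 19.6 and 32.7 in p53- Myc+ arrays and 29.8, 29 and 25 in the p53- Rb- Myc+ arrays. The Myc+ groups overlapped and lay far below the rest, with fold changes of -2.29 ± 0.17 against p53- (2.44e-10) and -1.98 ± 0.17 against p53- Rb- (3.16e-09). Its rise of 0.52 ± 0.17 against WT (0.0262) ended without WT replicate 1, 2 or 3 or p53- replicate 2 or 3 (0.0511 to 0.12). Gbp3, a guanylate-binding protein, read 21.3, 9.33 and 13.2 in WT, 49.9, 36.7 and 48.2 in p53- arrays, 14.5, 32.2 and 5.01 in p53- Rb- arrays, 14.3, 11.2 and 19.6 in p53- Myc+ arrays and 11.3, 15.7 and 20.6 in the p53- Rb- Myc+ arrays. Only the p53- group stood apart among these 15 arrays. Gbp3 rose by 1.00 ± 0.23 against WT (0.00247) and fell by 0.98 ± 0.23 in p53- Myc+ (0.0018) and by 0.95 ± 0.23 in p53- Rb- (0.00547), the last not without p53- Rb- replicate 3 (0.0591).

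Rtp4, a chaperone of membrane receptors that also restricts flaviviruses, read 128, 90.5 and 149 in WT, 197, 268 and 215 in p53- arrays, 146, 183 and 57.6 in p53- Rb- arrays, 2.91, 0.0026 and 0.0238 in p53- Myc+ arrays and 6.36, 5.96 and 3.42 in the p53- Rb- Myc+ arrays. Its readings with the Myc+ label were near the bottom of the scale. It fell in p53- Myc+ against p53- (3.4e-11), by an amount that is set by the 16 added and is no measure of the full fall (-3.83 ± 0.25). Its rise of 0.82 ± 0.25 against WT (0.0186) ended without WT replicate 2 (0.0962) or p53- replicate 2 (0.0716), and its fall of 0.85 ± 0.25 in p53- Rb- (0.0215) without p53- replicate 2 (0.0714) or p53- replicate 3 (0.0584), or without p53- Rb- replicate 3 (0.193). Xaf1, which binds inhibitors of apoptosis, read 145, 137 and 170.5 in WT, 183, 365 and 189 in p53- arrays, 221, 249 and 183 in p53- Rb- arrays, 20.4, 5.99 and 24.2 in p53- Myc+ arrays and 29.8, 26.1 and 24 in the p53- Rb- Myc+ arrays. All WT arrays lay below all p53- and p53- Rb- arrays without passing (0.59 ± 0.23, 0.062, and 0.48 ± 0.23, 0.177), and Xaf1 fell by 2.97 ± 0.23 in p53- Myc+ against p53- (5.32e-10).

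Lgals3bp, a secreted glycoprotein, read 225, 223 and 282 in WT, 164, 265 and 148 in p53- arrays, 354, 317 and 278 in p53- Rb- arrays, 16.7, 34.5 and 46.4 in p53- Myc+ arrays and 95.1, 71.2 and 89.9 in the p53- Rb- Myc+ arrays. Its p53- Rb- arrays lay above all p53- arrays, and the Myc+ groups were low and apart. Lgals3bp rose by 1.10 ± 0.22 in p53- Rb- Myc+ against p53- Myc+ (0.00268). Its rise of 0.71 ± 0.22 in p53- Rb- against p53- (0.0272) ended without p53- replicate 1 (0.112) or 3 (0.158) or p53- Rb- replicate 1 (0.101) or 2 (0.0587). Ifi35, which binds Nmi, read 145, 97.8 and 142 in WT, 199, 149 and 164 in p53- arrays, 242, 224 and 171 in p53- Rb- arrays, 78.1, 60.9 and 64.9 in p53- Myc+ arrays and 106, 102 and 102 in the p53- Rb- Myc+ arrays. The p53- Myc+ arrays were lowest, and the p53- Rb- Myc+ arrays lay between them and all others but WT replicate 2. Ifi35 fell by 1.15 ± 0.18 in p53- Myc+ against p53- (1.56e-05).

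Against WT, 25 of 41 members fell and 2 rose in arrays labelled p53- Myc+ (65.9% against 44.2% of all genes, 20.9% falling and 23.4% rising), and 20 fell and 3 rose in p53- Rb- Myc+ arrays (56.1% against 45.4%, 19.1% falling and 26.3% rising). Arrays did not overlap in 26 lower and 2 higher members in p53- Myc+ (22.5% and 25.1% of all genes) and in 21 lower and 4 higher in p53- Rb- Myc+ (21.6% and 30.2%). The fold changes of Zbp1 were -3.07 ± 0.22 (9.26e-11) and -3.25 ± 0.22 (4e-11), and those of Ddx58 -2.45 ± 0.20 (7.76e-10) and -2.12 ± 0.20 (9.89e-09). These 2 sensors, whose levels overlapped between WT and p53- arrays, were thus below the wild-type level in both Myc+ groups. For Bst2 they were -2.49 ± 0.20 (6.01e-10) and -1.62 ± 0.20 (6.08e-07). Samd9l fell by 1.20 ± 0.23 in p53- Myc+ (0.000145) but read -0.54 ± 0.23 in p53- Rb- Myc+ (0.056, and 0.0468 with the replicate number as a block). Rsad2, which had risen in p53- arrays, read -0.30 ± 0.18 and -0.21 ± 0.18 (0.199 and 0.376). Ifitm1 rose by 1.15 ± 0.19 (3.14e-05) and 4.02 ± 0.19 (9.14e-14), Ifit2 by 0.77 ± 0.22 in p53- Myc+ (0.0069, but 0.0581 without WT replicate 1) and Ifit3 by 0.64 ± 0.22 in p53- Rb- Myc+ (0.0179, but 0.155 without WT replicate 3 and 0.055 without p53- Rb- Myc+ replicate 1). In p53- Rb- arrays the 4 that rose were Stat2 (0.91 ± 0.16, 0.000695), Oasl2 (0.90 ± 0.25, 0.0161), Dhx58 (0.76 ± 0.22, 0.0207) and Ifi35 (0.67 ± 0.18, 0.013). Of these, Stat2 passed without any 1 array. The other 3 did not pass without p53- Rb- replicate 1 (0.0688 to 0.0771) or replicate 2 (0.0571 to 0.105), Oasl2 and Ifi35 not without WT replicate 2 (0.126 and 0.0907), and Dhx58 not without WT replicate 3 (0.114). With 1 added Oasl2 (0.0865) and Dhx58 (0.0941) did not pass. In both Myc+ groups the WT comparison counts members that read under 16 on average, 13 of 41 in p53- Myc+ arrays and 10 of 41 in p53- Rb- Myc+ arrays, where the fold change is compressed.

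Whether the change with the Rb- label depended on the Myc+ label was tested as the difference of both Rb comparisons, which share no array. It passed for 16 of 41 members, 39% against 13.6% of all genes, with 15 positive (8.78% of all genes) and 1 negative (4.86%). The median difference was 0.49 over members and 0.13 over all genes. Rb1 itself also passed this limma test (0.70 ± 0.23, 0.0484). Its change with the Rb- label was -1.27 without the Myc+ label and -0.57 with it, so the measured Rb1 contrast was not the same in both. Among the members that passed, Ifih1, Rtp4, Usp18, Samd9l, Ifit1, Parp14 and Gbp3 had a group mean under 16 in p53- Myc+ arrays. A further fall with the Rb- label could hardly be seen there, which favours positive differences. Samd9l had the second largest difference, 2.52 ± 0.32 (1.48e-05), from -1.87 in p53- Rb- against p53- to 0.65 in p53- Rb- Myc+ against p53- Myc+. For Rsad2 the values were -1.38 and 0.09 (difference 1.47 ± 0.25, 0.000476), and for Ifitm1 0.07 and 2.87 (2.79 ± 0.27, 3.57e-07). Stat2, Bst2 and Lgals3bp rose in both, and their differences did not pass: 0.31 (95% interval -0.17 to 0.79), 0.30 (-0.29 to 0.88) and 0.40 (-0.25 to 1.04). The count was 10 without p53- replicate 3 and 11 without p53- Rb- replicate 3, and 11 after median centring, when the share of all passing genes that were positive went from 64.4% to 45.1% (53.7% after quantile normalization).

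**Figure D5:**
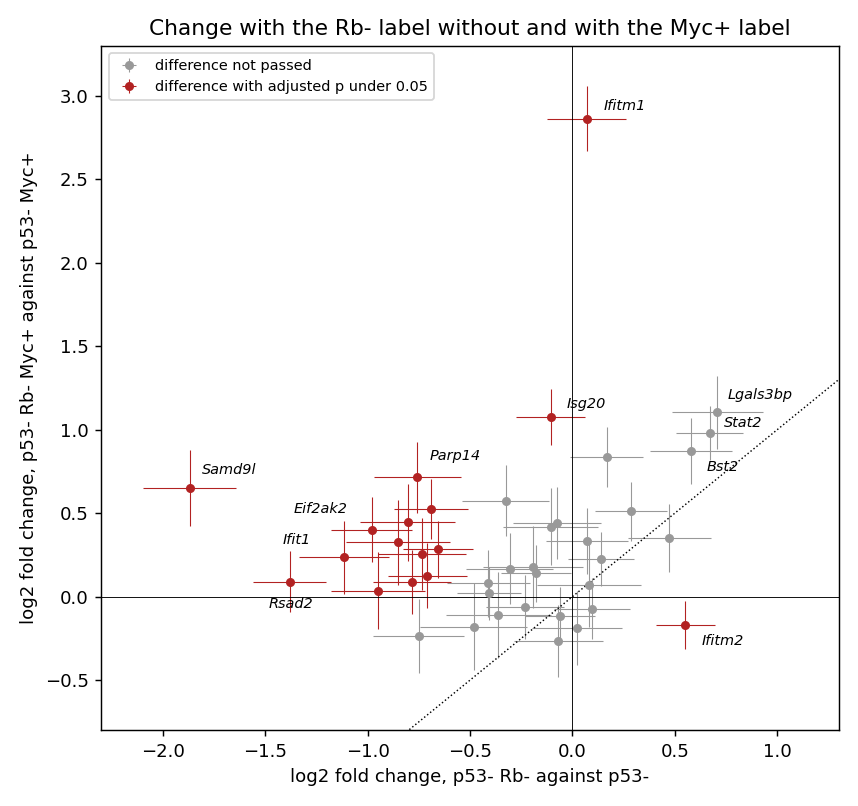
Log2 fold change with the Rb- label in cells without (x axis) and with (y axis) the Myc+ label, 1 point per interferon-stimulated gene with its SE; red points passed the test of the difference, and the dotted line marks equal change. Samd9l lies at -1.87 and 0.65, Ifitm1 at 0.07 and 2.87, and Stat2, Lgals3bp and Bst2 rose in both.

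The rest of the pathway was followed in a list of 123 further names, of which 95 had a probe set of their own. Alternative fits were read gene by gene for the members only, so calls of these 95 were not checked under them. In p53- against WT arrays 25 of these rose and 13 fell, in p53- Rb- against p53- 11 and 14, in p53- Myc+ against p53- 7 and 40, and in p53- Rb- Myc+ against p53- Myc+ 12 and 1. As shares of the 95 these rises and falls are 26.3% and 13.7%, 11.6% and 14.7%, 7.37% and 42.1%, and 12.6% and 1.05%. The shares of all genes in the same order were 19.3% and 9.72%, 9.36% and 10.4%, 13.1% and 20.2%, and 3.29% and 1.4%, so those of p53- against WT and of p53- Rb- against p53- lie near the background. Of 14 ligand genes, Ifna4, Ifna9, Ifna14 and Ifnk rose in p53- against WT, by 0.45 to 0.54. The interferon-alpha genes are close copies of each other and may share probes. In p53- Rb- against p53- 1 ligand gene fell, Ifna11 (0.46 ± 0.16, 0.043), and in p53- Myc+ against p53- 1, Ifna12 (0.52 ± 0.19, 0.043). Each is 7.14% of the 14, below the 10.4% and 20.2% of all genes that fell. Of 9 receptor and kinase genes, the receptor chains Ifnar1, Ifnar2, Ifnlr1 and Il10rb fell in p53- against WT, by 0.43 to 0.76, while the kinase Jak2 rose by 0.94 ± 0.20 (0.0013). Tyk2, the kinase on Ifnar1, fell by 1.08 ± 0.18 in p53- Myc+ against p53- (6e-05).

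Among 12 upstream sensors and adaptors, Tlr3, the endosomal receptor for double-stranded RNA, rose by 0.65 ± 0.17 in p53- against WT (0.0077), fell by 0.69 ± 0.17 in p53- Rb- against p53- (0.0071) and fell by 3.15 ± 0.17 in p53- Myc+ against p53- (1.2e-12). The cytosolic DNA sensor Cgas rose by 0.79 ± 0.18 in p53- against WT (0.0026) and fell by 1.16 ± 0.18 in p53- Myc+ (2e-05). Tlr7, a receptor for single-stranded RNA, rose by 0.61 ± 0.16 in p53- Myc+ against p53- (0.0052) and by 1.13 ± 0.16 in p53- Rb- Myc+ against p53- Myc+ (5.2e-05). Of 42 other interferon-induced genes, 15 rose and 3 fell in p53- against WT. The chemokines Cxcl10 and Ccl5 rose by 1.42 ± 0.22 (7.5e-05) and 1.19 ± 0.21 (0.00033) and fell in p53- Rb- against p53- by 1.92 ± 0.22 (5.1e-06) and 1.66 ± 0.21 (1.7e-05). Slfn9 and the helicase Ddx60 rose by 1.43 ± 0.17 and 1.29 ± 0.16 and fell by 2.00 ± 0.17 and 1.18 ± 0.16 in the same comparisons. Ube2l6, the E2 enzyme for Isg15, went the other way, falling by 0.62 ± 0.19 in p53- (0.018) and rising by 1.56 ± 0.19 in p53- Rb- against p53- (9.4e-06) and by 1.98 ± 0.19 in p53- Rb- Myc+ against p53- Myc+ (1.8e-07). In p53- Myc+ against p53- arrays 25 of the 42 fell, led by Slfn2 at 2.66 ± 0.19 (1.5e-10), Ifi27 at 2.38 ± 0.18 (3.2e-10) and Nmi at 2.35 ± 0.18 (2.5e-10).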

How the data were processed

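The authors deposited 1 intensity per probe set and array on a linear scale, and the submitters' processing notes name Affymetrix Expression Console 1.1 as the tool; for summarisation, background correction and scaling the method is not given in the sources used here. RNA was amplified with a WT-Ovation Pico kit, per the labels' protocols. Values ran from 4.11e-05 to 8348. Of 35556 probe sets, 21789 had 1 gene symbol, 1621 several, and 12146 were not listed in the platform annotation; names were checked against assembly GRCm38.p6. The number of arrays limits the precision.

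Log2(intensity + 16) was fitted with limma 3.58.1 in R 4.3.3 (lmFit, eBayes; group means), with 2-sided tests in 8 comparisons of groups and the difference of both Rb comparisons. The fit was tested on simulated data of known change. Promoters were searched in Python 3.11.15.

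The members, the pathway and marker lists, and the tests were chosen with earlier results of these data known. Array values are given for up to 4 members of each role with the smallest F-test p, fold changes for up to 4 per direction of each comparison, and others where they pass; array values of Isg20, Ifitm2 and Ifitm3 were added after they were seen. In p53- Rb- Myc+ against p53- Myc+ arrays, same-numbered arrays deviated together (r = 0.102, 0.192 and 0.379), a pairing that comes from the values, not the labels. Alternatives were another constant, scaling, probe set rule, level filter, set of arrays, a replicate block, and leaving out each array.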

Additional observations from a re-analysis of the deposited data

Results flagged for a closer look

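For 16 members the change with the Rb- label differed between cells with and without the Myc+ label, by the test of the difference in limma with Benjamini-Hochberg adjustment over all genes. Each value is the log2 change in p53- Rb- Myc+ against p53- Myc+ arrays minus that in p53- Rb- against p53- arrays. Rb1 itself differed by 0.70 in the same test (adjusted p = 0.0484). Ifitm1 (2.79, adjusted p = 3.57e-07) and Isg20 (1.18, 0.00191) rose with the Rb- label in cells labelled Myc+ and read 0.07 and -0.11 in cells without it. Samd9l (2.52, 1.48e-05), Rsad2 (1.47, 0.000476), Eif2ak2 (1.38, 0.00197), Parp14 (1.47, 0.0022), Ifih1 (1.22, 0.00264), Ifit1 (1.35, 0.00543), Oas3 (0.94, 0.0121) and Usp18 (1.25, 0.0132) fell with the Rb- label in cells without the Myc+ label and did not pass in cells with it. The same description fits Rtp4 (1.18, 0.0323), Ifit3 (0.99, 0.0328), Oas2 (0.87, 0.0335), Gbp3 (0.99, 0.0459) and Irf7 (0.83, 0.0473). Samd9l, Parp14, Ifih1, Ifit1, Usp18, Rtp4 and Gbp3 had a group mean under 16 in p53- Myc+ arrays. For them a fall with the Rb- label could hardly be seen in cells labelled Myc+. Ifitm2 had the negative difference (-0.72, 0.0219), with 0.55 in cells without the Myc+ label and -0.17 with it.

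The first 10 named passed without any 1 array and under all scalings, constants and probe set rules run, where their level let them be tested. Of the other 6, Irf7, Ifit3 and Gbp3 each lost the call in several fits that left out 1 array, with adjusted p of 0.0537 to 0.148, 0.0527 to 0.1 and 0.0714 to 0.15. Oas2 (0.0635 to 0.105), Rtp4 (0.0566 to 0.0867) and Ifitm2 (0.05 to 0.0583) did so too, and Ifitm2 read 0.22 with the mean of its 3 probe sets. After median centring Irf7 (0.0947), Ifit3 (0.0531), Oas2 (0.0567), Gbp3 (0.0839) and Rtp4 (0.0516) did not pass, and after quantile normalization or with 1 added Irf7, Ifit3, Oas2 and Gbp3 did not (0.05 to 0.136). With 64 added Gbp3 (0.0618) and Rtp4 (0.0709) did not.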

How the results depend on the processing

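No member that passed had the opposite sign under any alternative run. Calls that held in every alternative in which the gene was tested numbered 11 of 20 in p53- against WT, 6 of 18 in p53- Rb- against p53-, 30 of 35 in p53- Myc+ against p53-, 5 of 6 in p53- Rb- Myc+ against p53- Myc+, 22 of 24 in p53- Rb- Myc+ against p53- Rb-, 1 of 4, 21 of 27 and 18 of 23 in p53- Rb-, p53- Myc+ and p53- Rb- Myc+ against WT, and 10 of 16 for the difference of both Rb comparisons. With 1 in place of 16 added, members passing went from 20 to 13 in p53- against WT, from 18 to 9 for Rb without Myc+ and from 4 to 2 for p53- Rb- against WT. With 64 added the last was 7, and with only the groups compared in the fit it was 2. Restricting the fit to genes at or above the median level leaves 18 members. Of these, 4 rose and 2 fell in p53- against WT, with a median of 0.29. In p53- Rb- against p53-, 4 of the 18 rose and 1 fell, with a median of 0.07, as for all genes in that fit. The main fit of 41 members gave 4 that rose and 14 that fell there, with a median of -0.23. For MYC without and with the Rb deletion 17 and 14 passed, for both Myc+ groups against WT 16 and 12, and for the difference 5.

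Leaving out 1 array at a time, members passing ranged from 15 to 20 in p53- against WT, 9 to 17 in p53- Rb- against p53-, 33 to 36 in p53- Myc+ against p53-, 5 to 7 in p53- Rb- Myc+ against p53- Myc+, 23 to 25 in p53- Rb- Myc+ against p53- Rb-, 1 to 6 in p53- Rb- against WT, 23 to 26 in p53- Myc+ against WT, 21 to 23 in p53- Rb- Myc+ against WT and 10 to 17 for the difference. All genes passing ranged, in the same order, from 3470 to 6094, 2098 to 4725, 5647 to 6372, 649 to 867, 5813 to 6800, 1697 to 3167, 8056 to 8528, 7839 to 8482 and 1762 to 3234. The cause of these changes was not tested, and each of these fits also has 1 array fewer.

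With the replicate number as a block, members passing numbered 19, 18, 35, 6, 24, 4, 27, 24 and 15 in that order. The block ended the calls of Irf7 (adjusted p = 0.0533) and Gbp3 (0.0553) for the difference and of Ifitm2 in p53- against WT (0.057), and added Parp9 for the difference (0.0483) and Samd9l in p53- Rb- Myc+ against WT (0.0468). It changed no other call of a member, and none in p53- Rb- Myc+ against p53- Myc+.

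Dim members limit the precision: in p53- Myc+ arrays 31.7% of members and 15.3% of all genes had a group mean under 16.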

Other observations

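Among genes that act on the pathway from outside the list, Stat3, which carries signals of other cytokines, fell in p53- against WT (-0.88 ± 0.16, adjusted p = 0.000307) and rose in p53- Rb- against p53- (0.58 ± 0.16, 0.0119), and so did Socs3, an inhibitor of Jak kinases (-0.61 ± 0.19, 0.0225, and 0.88 ± 0.19, 0.00277). Ptpn6, a phosphatase that damps cytokine receptors, fell in p53- Myc+ against p53- (-1.36 ± 0.18, 1.56e-06) and rose in p53- Rb- Myc+ against p53- Myc+ (0.99 ± 0.18, 0.000769), as did the kinase Ikbke (-1.93 ± 0.18, 1.37e-08, and 0.81 ± 0.18, 0.00787). Pml, which organises nuclear bodies, rose in p53- Myc+ against p53- (0.83 ± 0.16, 0.000215). Cxcl9, a chemokine classed with Cxcl10 as interferon-induced, fell in p53- against WT (-0.84 ± 0.19, 0.00221), where Cxcl10 rose (1.42 ± 0.22, 7.51e-05). These genes were chosen after their values were seen, and their calls were not checked under the alternative fits.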
